A study of Homo sapiens with 6 samples.

Results

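The genes described here carry the unfolded protein response and the folding, disulfide formation and disposal of proteins in the endoplasmic reticulum (ER). A list of 38 such genes was set by name, in 5 roles: 7 sensors and transcription factors, 2 regulators of the eIF2 phosphatase, 12 folding factors, 7 genes of disulfide oxidation, and 10 genes of degradation and translocation. Of these, 37 had a row among the 21631 symbols of the count table, and all 37 passed the filter on low counts. DERL3 was not analysed here. The samples were 6 RNA-seq libraries of A-375, an established human melanoma line: 3 were titled as carrying a control guide (sgCTRL) and 3 a guide against SEPHS2 (sgSEPHS2), which makes the selenophosphate used for selenocysteine. No time, dose or separate knockout clone is labelled, so a difference in founding cells and an effect of SEPHS2 loss cannot be told apart. Nothing in the labels says that the 3 libraries of a group came from separate cultures, so the spread that p-values are read against is the spread among these libraries and may be technical.

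When unfolded proteins build up in the ER, its membrane holds sensors that report this to the nucleus and to the ribosome. IRE1, encoded by ERN1, splices XBP1 mRNA into the form that encodes an active transcription factor. PERK, encoded by EIF2AK3, phosphorylates the initiation factor eIF2 and slows translation, and ATF6 travels to the Golgi, where it is cut to release a transcription factor. Their targets include the chaperones, the protein disulfide isomerases and the degradation machinery that pulls misfolded proteins back into the cytosol. Gene-level counts show neither XBP1 splicing, nor ATF6 cleavage, nor phosphorylation of PERK or eIF2.

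Libraries held 34606145 to 43405579 counted reads. SEPHS2 itself was not lower in the libraries labelled knockout: the control libraries held 6671, 6277 and 6269 of its reads and the others 5802, 7643 and 6978, which after scaling was 0.15 higher on the log2 scale (SE 0.04, edgeR adjusted p = 0.00401). A count over the whole gene does not show whether a guide shifted the reading frame, nor does it check the label. Directions below therefore rest on the labels. The first principal component of log2 CPM held 70.4% of the variance and separated the groups, and no library stood apart from its group on it. Among melanocyte lineage markers SOX10 was at 619 CPM (the reads of a gene relative to the TMM-scaled library size) in the control group and 569 in the libraries labelled knockout. In the same order, MITF was at 23.5 and 18.5 CPM, S100B at 33.9 and 33.1 and S100A1 at 2.63 and 2.51. MLANA was at 1.17 and 1.3 and PMEL at 0.965 and 0.972, whereas TYR, DCT and TYRP1 were at or below 0.227 CPM in both groups. Of the markers of dedifferentiated melanoma, NGFR went from 6.12 to 24.1 CPM and AXL from 118 to 158, while EGFR went from 37 to 19.5. Epithelial, leukocyte and hepatocyte marker lists each summed to 2.55 CPM or less in every library. The endothelial list summed to between 5.65 and 7.99 CPM, most of it PECAM1, at 6.55 CPM in the control group and 5.59 in the other. In bulk RNA, fewer cells of a type and less RNA per cell cannot be told apart. Of the plasma cell markers, SDC1 went from 25 to 65.3 CPM while MZB1 stayed at or below 0.352. The part of these marker changes in the results below was not tested.

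In the libraries labelled knockout, 4 of 7 sensors and transcription factors were called lower and none higher, all by less than 1.5-fold. Of 12 folding genes 6 were higher and 1 lower, and of 9 degradation and translocation genes 3 were higher and 1 lower. Of all tested genes, 22.0% were called higher and 23.4% lower, and of those with a mean of at least 10 CPM, 30.2% and 24.8%. With 44.4% called in either direction, the degradation genes were near the 45.4% of all tested genes. They were below the 55.0% of those with at least 10 CPM. The sensors, at 57.1%, and the folding genes, at 58.3%, were near that 55.0%. ERN1 fell by 33.3% and ATF6 by 16.4%. CALR and CANX, the lectin chaperones of the ER, rose by 16.3% and 15.8%, and VCP, the ATPase that extracts proteins for the proteasome, by 23.8%. XBP1 overlapped between the groups and was not called.

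Of the 37 genes, 10 rose and 7 fell (edgeR quasi-likelihood test at a threshold of 0.05, with Benjamini-Hochberg adjustment across all 16910 tested genes). That is 45.9% of them, near the 45.4% of all tested genes that were called, so the number called says nothing particular about these genes. By direction, 27.0% were higher and 18.9% lower, where 22.0% and 23.4% of all tested genes were. These are well-expressed mRNAs: of the 36 with a mean of at least 10 CPM, 44.4% were called, against 55.0% of all tested genes at that level. Of these 36, 9 were higher and 7 lower, both smaller shares than the 30.2% and 24.8% of all tested genes at that level. The larger share called higher was thus not seen against genes of like abundance. The groups did not overlap for 22 of 37 genes, 59.5%, against 52.1% of all tested genes. Among those with at least 10 CPM the order was the other way, 58.3% against 61.6%. The median absolute log2 fold change was 0.10, against 0.20 for all tested genes and 0.15 for those with at least 10 CPM. The signed median was -0.02, against 0.01 for all tested genes. Summed over the 37 genes, the level was 7679 ± 87 CPM in the control group and 7994 ± 144 in the libraries labelled knockout (SD, n = 3 per group). HSP90B1, HSPA5, CANX and CALR, at 1219, 917, 896 and 844 CPM in the control group, weigh most in that sum. By sign, 20 of the 37 log2 fold changes were negative and 17 positive.

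**Figure D1:**
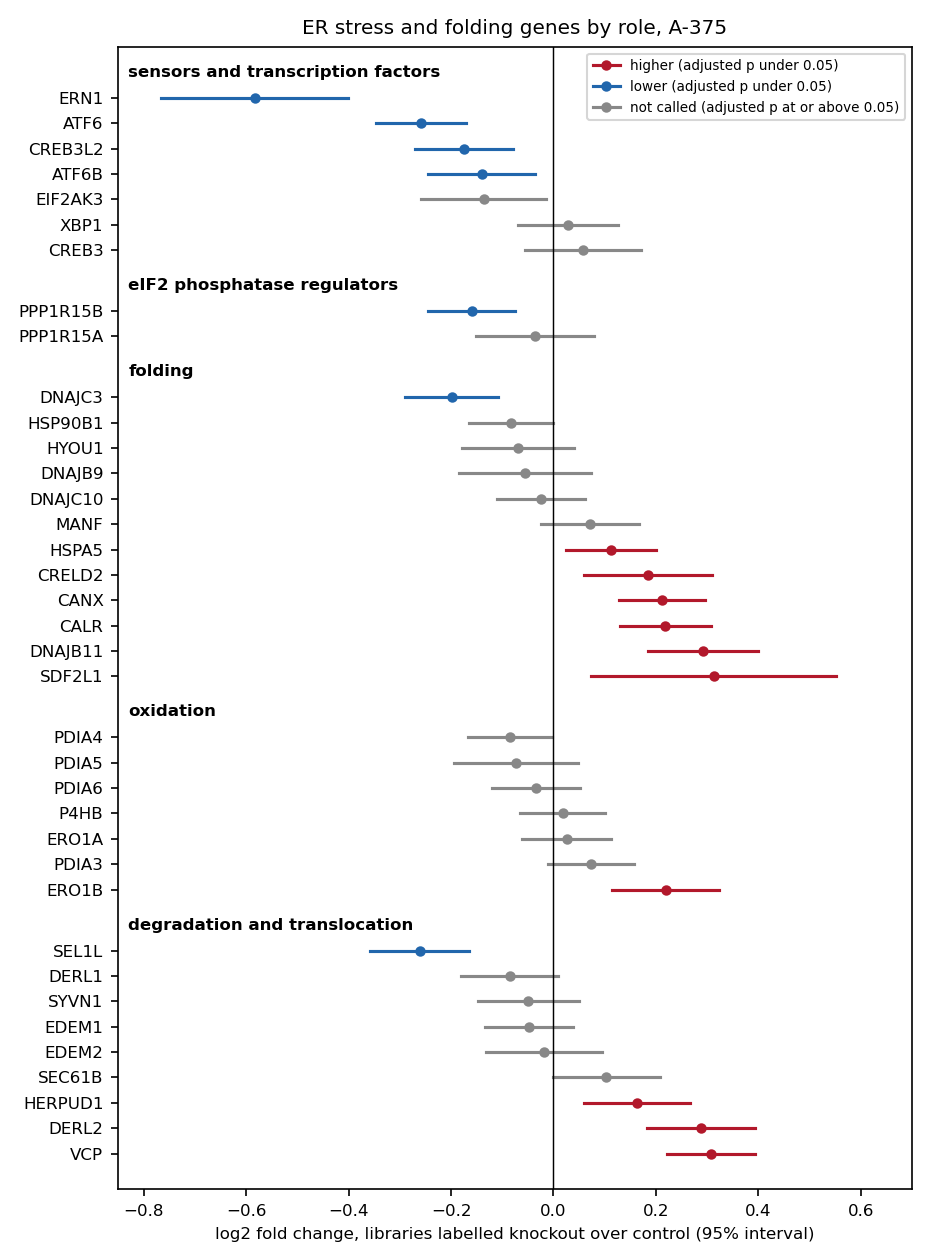
Log2 fold change of each of the 37 genes, libraries labelled knockout over control, by role; points are edgeR estimates, lines their 95% intervals, red and blue mark genes called higher and lower. The called sensors lie to the left of 0, from ERN1 at -0.58 to ATF6B at -0.14, and the 10 genes called higher, which are 6 folding genes, 3 degradation genes and ERO1B, lie between HSPA5 at 0.11 and SDF2L1 at 0.31.

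Several of these genes share a DNA element, and the stretches that hold it are shown before the results by role. The ER stress response element (ERSE) is bound by ATF6 and XBP1 together with the factor NF-Y. ERSE was searched as CCAAT, then any 9 bases, then CCACG, and the related ERSE-II as ATTGG, any 1 base, then CCACG, on both strands. The windows ran from 250 bases before to 50 after each RefSeq gene start (GRCh38.p14), and 35 of the 38 genes had at least 1. Of those 35 genes, 8 held an ERSE and 3 an ERSE-II, 31.4% together, where 0.131% of all 35116 windows held either. The first share counts genes, some with more than 1 window, and the second counts windows. No gene held both. These elements were first defined in promoters of this gene family, so the share is a description and not a finding. The 60-base stretches below run 5′ to 3′ on the strand of the gene, with the matched element in capitals. An element on the other strand reads CGTGG first. The CANX and PDIA6 stretches lie at start sites inside the annotated span of the gene, and the CANX element itself spans another of its start sites. A further window of each of these genes, and of XBP1, held no element.
HSPA5, chr9:125241371-125241430, minus strand, ERSE: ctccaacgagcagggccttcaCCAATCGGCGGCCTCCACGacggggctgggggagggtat
CALR, chr19:12938363-12938422, plus strand, ERSE: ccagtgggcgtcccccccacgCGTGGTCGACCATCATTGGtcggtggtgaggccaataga
CANX, chr5:179698757-179698816, plus strand, ERSE: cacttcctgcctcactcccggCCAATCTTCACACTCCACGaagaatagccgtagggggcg
CRELD2, chr22:49918533-49918592, plus strand, ERSE: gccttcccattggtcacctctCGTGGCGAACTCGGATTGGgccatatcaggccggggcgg
ERO1B, chr1:236282149-236282208, minus strand, ERSE: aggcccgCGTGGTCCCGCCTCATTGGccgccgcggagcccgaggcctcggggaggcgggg
HSP90B1, chr12:103930195-103930254, plus strand, ERSE: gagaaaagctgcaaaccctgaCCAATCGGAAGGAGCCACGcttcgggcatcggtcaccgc
PDIA6, chr2:10812833-10812892, minus strand, ERSE: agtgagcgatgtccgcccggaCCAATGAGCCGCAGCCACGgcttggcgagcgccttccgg
XBP1, chr22:28800583-28800642, minus strand, ERSE: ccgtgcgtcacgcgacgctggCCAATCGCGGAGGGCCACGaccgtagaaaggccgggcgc
HERPUD1, chr16:56932000-56932059, plus strand, ERSE-II: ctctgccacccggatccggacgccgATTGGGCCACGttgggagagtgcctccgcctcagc
HYOU1, chr11:119057250-119057309, minus strand, ERSE-II: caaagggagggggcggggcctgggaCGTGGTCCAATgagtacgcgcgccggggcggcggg
SDF2L1, chr22:21642089-21642148, plus strand, ERSE-II: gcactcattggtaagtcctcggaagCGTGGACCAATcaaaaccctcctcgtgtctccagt

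HSP90B1 and HYOU1 each held a second copy of their element, which is not printed. Of the 11 genes with an ERSE or ERSE-II, 7 rose, none fell with edgeR and 4 were not called, with a median log2 fold change of 0.16 (range -0.08 to 0.31). The other 24 genes with a window held 3 that rose, 7 that fell and 14 that were not called, with a median of -0.05 (range -0.58 to 0.31). Of all tested genes, 22.0% were called higher and 23.4% lower. Among those with a mean of at least 10 CPM, the shares were 30.2% and 24.8%. The difference between these subsets was not tested, and it overlaps with the split by role. Of the genes that rose with an element, HSPA5, CALR, CANX, CRELD2 and SDF2L1 are folding genes, and ERO1B and HERPUD1 are not. Of those that fell without one, ERN1, ATF6, ATF6B and CREB3L2 are sensors or transcription factors, and PPP1R15B, DNAJC3 and SEL1L are not. Of the 7 rises beside an element, the 3 of CALR, CANX and ERO1B were kept under every alternative tried, as were 8 of the 10 calls in genes without an element. Those of HSPA5, HERPUD1, CRELD2 and SDF2L1 were lost under at least 1. HYOU1 was called lower without knockout replicate 1 (edgeR adjusted p = 0.017). HSP90B1 was called lower with DESeq2 (adjusted p = 0.0207) and once the smooth trend of fold change over exon length and GC content was taken out (edgeR adjusted p = 0.0029, written below as the length and GC trend removed). TGACGTG, the core of another element bound by XBP1 and ATF6, matched on either strand in DNAJC10, HYOU1 and VCP and in 1.97% of all windows, and in HYOU1 it overlapped the unprinted ERSE-II copy. A match is a match of letters, and binding was not measured.

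**Figure D2:**
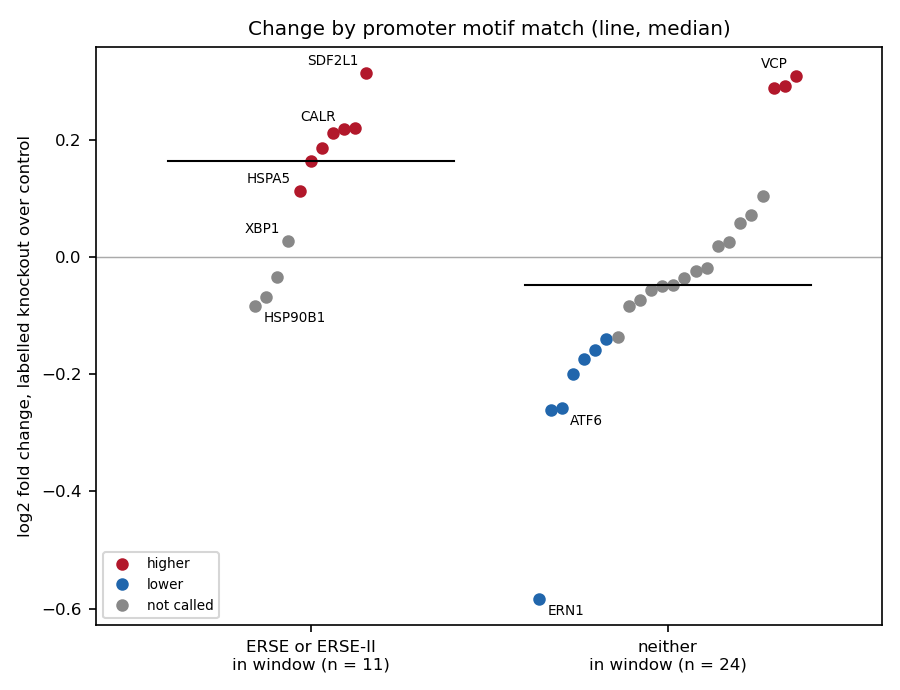
Log2 fold change of the 35 genes with a promoter window, split by whether the window held an ERSE or ERSE-II; each point is a gene, coloured by its call, and the line is the median. The 11 genes with an element range from -0.08 to 0.31 and include none called lower, whereas the other 24 include the 7 called lower and VCP at 0.31.

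Of the 7 sensors and transcription factors, 4 fell, none rose and 3 were not called with edgeR. At an unadjusted p under 0.05, 5 were lower and 0 higher, and DESeq2 also called 4 lower and 0 higher. ERN1 (chromosome 17, 64039142 to 64130144, GRCh38.p14) had 14.7, 13 and 12.6 CPM in the control libraries and 8.76, 8.68 and 9.45 in those labelled knockout. Every library labelled knockout was below every control library. Its log2 fold change was -0.58 (SE 0.09, edgeR adjusted p = 1.29e-05), the lowest of the 37 genes, and ERN1 was also the least abundant per length, at 1.24 CPM per kb of exon in the control group. ATF6 (chromosome 1, 161766320 to 161964070) had 104, 101 and 101 CPM in the control libraries and 87.5, 84.5 and 83.7 in the others. These groups did not overlap either (log2 fold change -0.26, SE 0.04, edgeR adjusted p = 3.69e-05). CREB3L2, a membrane-bound factor of the same type that acts in secretory cells, had 97.9, 92.6 and 93.6 CPM against 87.8, 79.9 and 84.1, a log2 fold change of -0.17 (edgeR adjusted p = 0.00386).

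ATF6B, the close relative of ATF6, had 45.2, 46.9 and 47.3 CPM in the control libraries and 43, 43.1 and 40.4 in the others, a log2 fold change of -0.14 (edgeR adjusted p = 0.0266). That call was lost without control replicate 2 (adjusted p = 0.0782), control replicate 3 (0.0814) or knockout replicate 3 (0.125), and the ATF6B and CREB3L2 calls were lost with the length and GC trend removed (adjusted p = 0.0627 and 0.132). EIF2AK3 had 26.7, 27.3 and 26.9 CPM against 25.8, 23.1 and 24.9. Its groups did not overlap either, but it missed the threshold (log2 fold change -0.14, 95% interval -0.26 to -0.01, edgeR adjusted p = 0.0644), and it was called lower without knockout replicate 1 (adjusted p = 0.0285), with at least 1 CPM required in 3 libraries (0.0387) and with the length and GC trend removed (0.0218). XBP1 had 48.9, 48.4 and 48.1 CPM in the control libraries and 49.9, 50 and 48.3 in the others, which overlap. Its log2 fold change was 0.03 with a 95% interval of -0.07 to 0.13 (edgeR adjusted p = 0.675). CREB3, a Golgi-cleaved factor of the ATF6 type, had 0.06 with an interval of -0.06 to 0.17.

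The sensors summed to 371 ± 4.18 CPM in the control group and 335 ± 8.57 in the libraries labelled knockout, 9.7% lower by the means, and ATF6 and CREB3L2 make up most of that sum. ATF6 to ATF6B stood at 2.29, 2.15 and 2.14 in the control libraries and 2.03, 1.96 and 2.07 in the others. The ratios did not overlap between the groups, and the exact two-sided permutation test gave p = 0.1, the smallest that 3 against 3 allows, and 0.133 adjusted over the 4 pairs of genes compared in this way.

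PPP1R15A and PPP1R15B each bring a phosphatase to eIF2 and so reverse the action of PERK. PPP1R15A is induced by stress and PPP1R15B is constitutive. PPP1R15B fell from 138, 136 and 141 CPM to 126, 123 and 123, with no overlap (log2 fold change -0.16, SE 0.04, edgeR adjusted p = 0.00302). PPP1R15A had 39.5, 40.6 and 36.4 CPM against 36.9, 39.5 and 37.2, overlapping groups with a log2 fold change of -0.04 and a 95% interval of -0.15 to 0.08. Their ratio, 0.281 ± 0.0218 and 0.306 ± 0.0146 (SD, n = 3 per group), overlapped between the groups (exact permutation p = 0.2, adjusted 0.2).

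**Figure D3:**
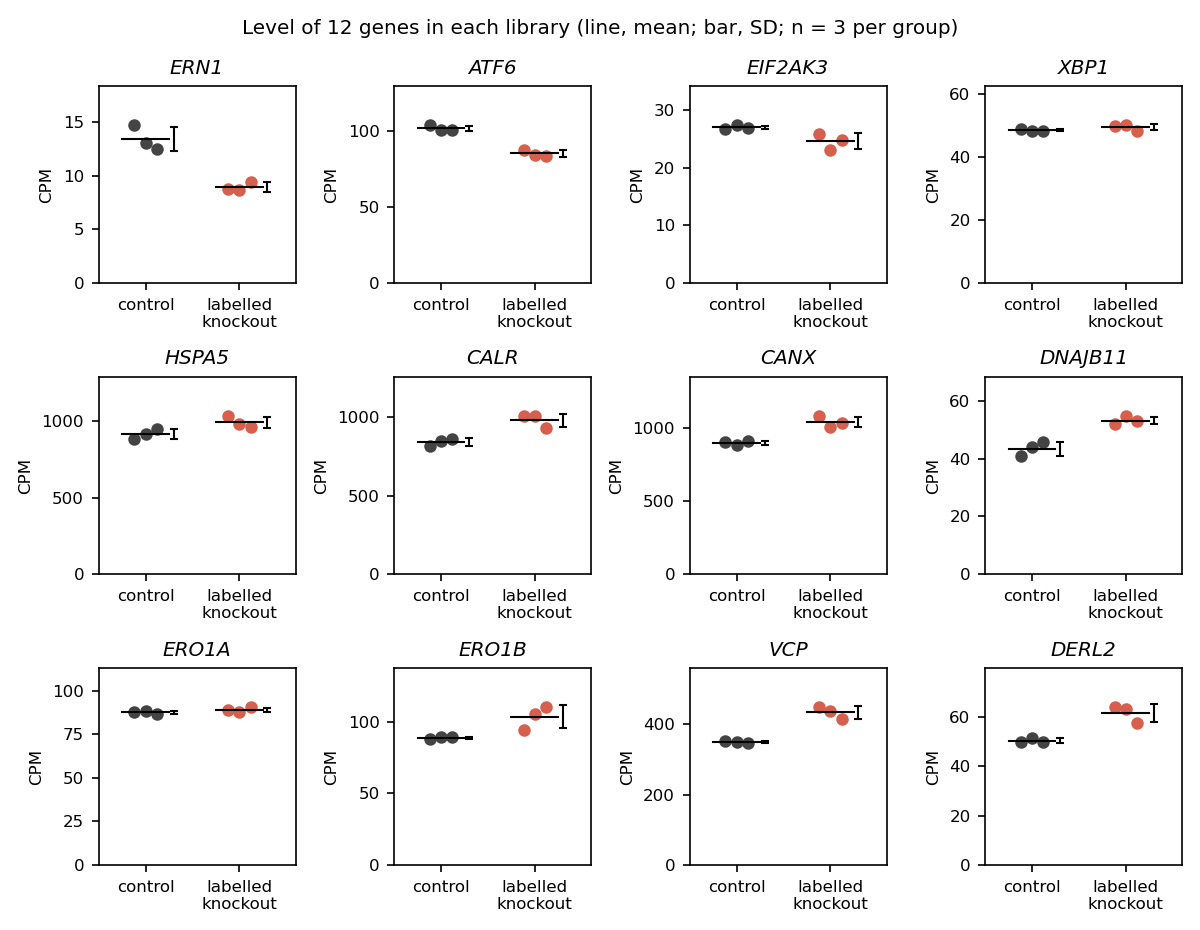
CPM in each library for 12 of the genes; points are libraries, horizontal lines are group means and bars are SDs (n = 3 per group), with every axis starting at 0. ERN1 and ATF6 are lower in all 3 libraries labelled knockout, CALR, CANX, DNAJB11, VCP and DERL2 are higher in all 3, and XBP1 and ERO1A overlap.

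Of the 12 folding genes 6 rose, 1 fell and 5 were not called, and they summed to 4593 ± 86.7 CPM in the control group and 4866 ± 106 in the other (SD, n = 3 per group). Most of that sum comes from HSP90B1, HSPA5, CANX and CALR. CALR (chromosome 19, 12938609 to 12944489), which encodes the soluble lectin chaperone calreticulin, had 816, 852 and 864 CPM in the control libraries and 1006, 1006 and 935 in the others. The lowest library labelled knockout was above the highest control (log2 fold change 0.22, SE 0.04, edgeR adjusted p = 2.55e-04). CANX, its membrane-bound counterpart, had 898, 883 and 907 CPM against 1076, 1007 and 1031, again without overlap (log2 fold change 0.21, SE 0.04, edgeR adjusted p = 2.07e-04). DNAJB11, a J-protein that hands unfolded chains to BiP, had 40.9, 44.0 and 45.6 CPM against 52.0, 54.6 and 53.0, the groups again apart (log2 fold change 0.29, edgeR adjusted p = 9.12e-05).

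HSPA5 encodes BiP, the main Hsp70 of the ER, which also holds the sensors inactive. It had 883, 918 and 950 CPM in the control libraries and 1030, 981 and 962 in the others, so the closest libraries of the groups nearly met. Its log2 fold change was 0.11 (95% interval 0.02 to 0.20, edgeR adjusted p = 0.0359). The call was lost without control replicate 1 (adjusted p = 0.175), control replicate 2 (0.0799), knockout replicate 1 (0.108) or knockout replicate 2 (0.0544), and with the length and GC trend removed (0.343). HSP90B1, the Hsp90 of the ER, had 1200.0, 1214 and 1244 CPM against 1132, 1158 and 1163, lower in every library, but missed the threshold (log2 fold change -0.08, edgeR adjusted p = 0.0916). The ratio of HSPA5 to HSP90B1 was 0.736, 0.756 and 0.763 in the control libraries and 0.910, 0.847 and 0.827 in the others, without overlap (exact permutation p = 0.1, adjusted 0.133).

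CRELD2 and SDF2L1, small resident proteins of the ER induced by stress, were also called higher, at log2 fold changes of 0.19 and 0.31. The CRELD2 call was lost without control replicate 1 (edgeR adjusted p = 0.0879) and with DESeq2 (adjusted p = 0.054). SDF2L1 is low, with 202 to 308 reads per library, and its call was lost without control replicate 2, control replicate 3, knockout replicate 1 or knockout replicate 2 (edgeR adjusted p = 0.0961, 0.12, 0.0504 and 0.106) and with DESeq2 (adjusted p = 0.0766). DNAJC3, which restrains PERK and assists BiP, was the folding gene that fell, from 110, 113 and 109 CPM to 101, 93.4 and 95.1 (log2 fold change -0.20, SE 0.04, edgeR adjusted p = 8.20e-04). It lies on chromosome 13 (95677139 to 95794988), where the 323 tested genes had a median log2 fold change of -0.40 and 212 were called lower. The part of the chromosome in its fall was not tested. HYOU1, DNAJB9, DNAJC10 and MANF, which are an exchange factor for BiP, 2 further J-proteins and a secreted stress factor, were not called and had log2 fold changes from -0.07 to 0.07. HYOU1 had the widest spread, 257 to 310 CPM in the libraries labelled knockout, and was called lower without knockout replicate 1 (log2 fold change -0.14, edgeR adjusted p = 0.017). With the length and GC trend removed, DNAJB9 was called lower (-0.17, adjusted p = 0.0269) and DNAJC10 higher (0.13, adjusted p = 0.0134).

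The genes of disulfide formation stood nearly level. Of 7 genes 1 rose, none fell and 6 were not called with edgeR, 14.3% called against 45.4% of all tested genes. At an unadjusted p under 0.05, 1 was higher and 1 lower, the latter PDIA4. Their summed level was 1617 ± 17.4 and 1636 ± 13.9 CPM (SD, n = 3 per group). Protein disulfide isomerases pass disulfide bonds to folding chains and are themselves reoxidised by ERO1. ERO1B (chromosome 1, 236215101 to 236281958) had 88.0, 89.3 and 89.5 CPM in the control libraries and 94.5, 106 and 110 in the others, also without overlap (log2 fold change 0.22, SE 0.05, edgeR adjusted p = 0.00116). ERO1A, the more widely expressed form, had 88.0, 88.3 and 86.5 CPM against 89.0, 88.1 and 90.5, with overlap, and a log2 fold change of 0.03 (95% interval -0.06 to 0.11). Their ratio, ERO1A to ERO1B, was 1.00, 0.989 and 0.966 in the control libraries and 0.941, 0.833 and 0.822 in the others, which did not overlap (exact permutation p = 0.1, adjusted 0.133).

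PDIA3, the isomerase that works with the lectin chaperones, had 450, 453 and 471 CPM in the control libraries and 476, 493 and 476 in the others (log2 fold change 0.07, edgeR adjusted p = 0.148). PDIA4 had 321, 332 and 333 CPM against 310, 313 and 307 (log2 fold change -0.08, edgeR adjusted p = 0.0876). PDIA5 had 23.1, 24.5 and 23.2 CPM against 22.0, 22.8 and 22.6 (-0.07, edgeR adjusted p = 0.336). These 3 isomerases separated by group in opposite directions but by less than the test could call. PDIA4 was called lower with DESeq2 (adjusted p = 0.0368), with at least 1 CPM required in 3 libraries (edgeR adjusted p = 0.044) and with the length and GC trend removed (adjusted p = 0.0273). PDIA6 and P4HB, the other 2 isomerases of the list, had log2 fold changes of -0.03 (95% interval -0.12 to 0.05) and 0.02 (-0.07 to 0.10).

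**Figure D4:**
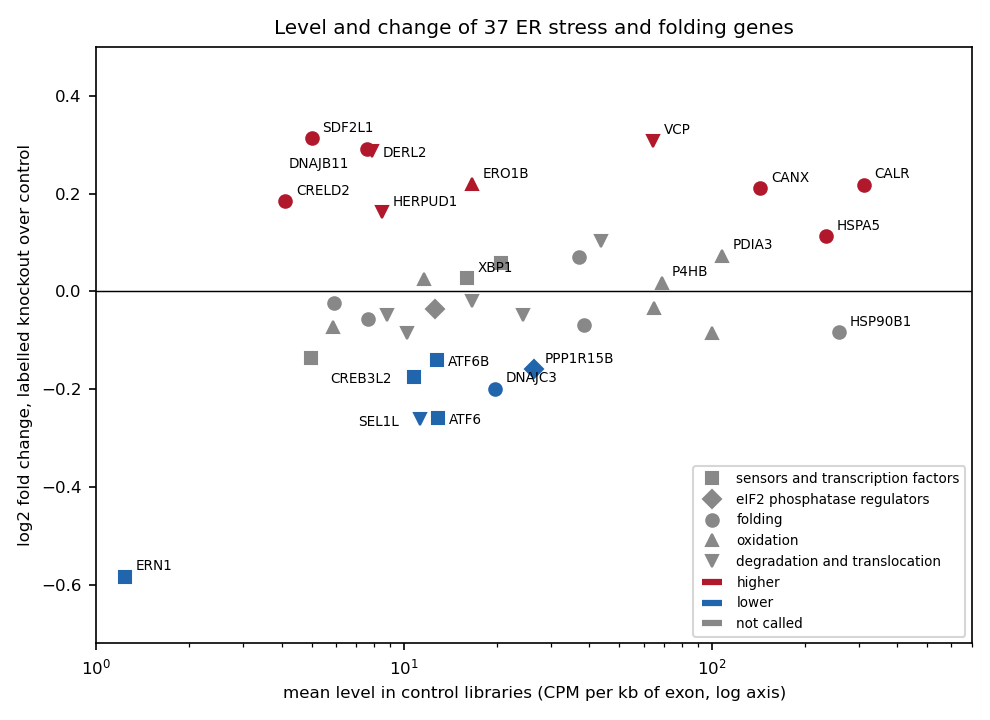
Level in the control libraries (mean CPM per kb of exon, log axis) against log2 fold change for the 37 genes; the marker shape gives the role and the colour the call. Genes called higher are found both at 311 CPM per kb (CALR) and at 4.11 (CRELD2), while those called lower lie between 1.24 (ERN1) and 26.5 (PPP1R15B).

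Of 9 genes of degradation and translocation, 3 rose, 1 fell and 5 were not called, and they summed to 921 ± 8.07 CPM in the control group and 996 ± 21.5 in the other (SD, n = 3 per group). VCP (chromosome 9, 35056064 to 35072625) had 354, 350 and 349 CPM in the control libraries and 449, 440 and 415 in the others. The control libraries lay close together and all of the others were well above them (log2 fold change 0.31, SE 0.04, edgeR adjusted p = 2.87e-06). DERL2, a channel component of the exit route, rose from 49.7, 51.6 and 49.6 CPM to 63.7, 63.2 and 57.3 (log2 fold change 0.29, SE 0.05, edgeR adjusted p = 8.31e-05). HERPUD1, a stress-induced scaffold of the same complex, rose from 42.0, 44.8 and 44.3 CPM to 50.5, 48.9 and 47.3 (log2 fold change 0.16, edgeR adjusted p = 0.0109). Leaving out control replicate 1 ended this call (adjusted p = 0.0704).

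SEL1L, the adaptor that holds the ubiquitin ligase of this complex together, went the other way. It had 113, 109 and 102 CPM in the control libraries and 93.0, 88.3 and 89.0 in the others, without overlap (log2 fold change -0.26, SE 0.05, edgeR adjusted p = 9.03e-05). SYVN1, that ligase, had a log2 fold change of -0.05 (95% interval -0.15 to 0.05). EDEM1 and EDEM2, lectins that mark glycoproteins for disposal, had -0.05 and -0.02, and DERL1 had -0.09 (edgeR adjusted p = 0.137). SEC61B, a subunit of the channel through which proteins enter the ER, had 0.10 (edgeR adjusted p = 0.1) and was called higher without knockout replicate 1 (adjusted p = 0.0154).

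The wider pathway was read from 7 lists drawn up by function, 124 genes in all. The shares called can be set against all tested genes, of which 45.4% were called, 22.0% higher and 23.4% lower. They were 69.2% for glycan trimming, 52.9% for the thiol oxidoreductases, 45.0% for the J-protein list and 44.4% for the sensor partners. The translocon list had 41.2%, the PERK outputs 36.4% and the further degradation genes 28.0%. The last 5 were thus at or below the share of all tested genes. Against the 55.0% called at 10 CPM or more, only the glycan trimming list was higher. The excess of the thiol list was thus not seen against well-expressed genes. The lists themselves were not split by abundance. Of 13 genes of glycan trimming and the lectin cycle, 8 fell and 1 rose, with a median log2 fold change of -0.21. UGGT2, a sensor of glycoprotein folding, fell from 110 ± 1.49 to 55.7 ± 0.759 CPM (SD, n = 3 per group), with a log2 fold change of -0.98 and an edgeR adjusted p of 1.25e-13. It too lies on chromosome 13. OS9, which delivers glycoproteins to SEL1L, fell by 0.36 on the log2 scale, and the mannosidase MAN1A2 by 0.31. Of 17 genes of the translocon, signal peptidase and signal sequence receptor, 7 rose and none fell with edgeR (9 and 0 at an unadjusted p under 0.05, 6 and 0 with DESeq2, median 0.11), among them SPCS2 (0.27), SEC61G (0.22) and SRPRA (0.18). Removing the length and GC trend ended the SEC61G, SSR3 and SEC11C calls (edgeR adjusted p = 0.529, 0.0934 and 0.135). SSR4 was then called higher (adjusted p = 0.0115). DESeq2 did not call SEC11C (adjusted p = 0.0639). Some single-library omissions also ended the calls of SEC11C (edgeR adjusted p = 0.0628 to 0.176) and SEC11A (0.0891 to 0.223). Neither passed an adjusted p under 0.01 (0.0251 and 0.0369). With 1 library left out, 5 to 8 genes of this list were higher and 0 lower.

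Of 17 tested thiol oxidoreductases and peroxidases outside the list of 38, 6 rose and 3 fell. TMX4 rose from 211 ± 0.313 to 309 ± 22.9 CPM, by 0.55 on the log2 scale (edgeR adjusted p = 4.85e-09), and ERP29 by 0.29, while QSOX1, an oxidase, fell by 0.30 on the log2 scale. Of 25 further degradation genes 4 rose and 3 fell. UFD1, a VCP cofactor, rose from 34.5 ± 0.645 to 50.6 ± 1.92 CPM, by 0.55 on the log2 scale (edgeR adjusted p = 1.25e-08), FAM8A1 fell by 0.48 and TRIM13, also on chromosome 13, by 0.25 on the log2 scale. The selenoproteins SELENOS and SELENOK, which bind VCP and the derlins, had log2 fold changes of 0.20 and 0.19 (edgeR adjusted p = 0.00704 and 0.00874). The SELENOK groups overlapped, and its call was lost without control replicate 1 (adjusted p = 0.0655) and with the length and GC trend removed (0.417).

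Of 20 further J-proteins, exchange factors and prolyl isomerases 4 rose and 5 fell, FKBP11 at 0.34, FKBP9 at -0.23 and HSPA13 at -0.20. Of 18 genes that process or partner the sensors 6 rose and 2 fell. The 2 that fell were MBTPS1 and MBTPS2, the Golgi proteases that cut ATF6, at -0.18 and -0.21 (edgeR adjusted p = 6.69e-04 and 5.45e-04), and the MBTPS1 call was lost with the length and GC trend removed (adjusted p = 0.424). NFYB, a subunit of the NF-Y factor at the CCAAT part of ERSE, rose by 0.37 (edgeR adjusted p = 1.05e-06). Of 11 tested outputs of the PERK arm 3 rose and 1 fell. ATF4, the factor whose translation PERK favours, had 234 ± 7.15 and 250.1 ± 8.26 CPM (SD, n = 3 per group). Its log2 fold change of 0.10 missed the threshold (edgeR adjusted p = 0.0632). It was called higher without knockout replicate 1 (adjusted p = 0.0303). DDIT3, which encodes CHOP, went from 5.53 to 6.92 CPM with overlapping groups (edgeR adjusted p = 0.0476), a call lost when any 1 library other than knockout replicate 1 was left out (adjusted p = 0.0615 to 0.359). TRIB3 had 0.17 (edgeR adjusted p = 0.0337), lost without any 1 of control replicate 1, control replicate 3, knockout replicate 2 or knockout replicate 3 (adjusted p = 0.0647 to 0.177). DDIT4 rose by 0.65 and CEBPB fell by 0.38 on the log2 scale.

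**Figure D5:**
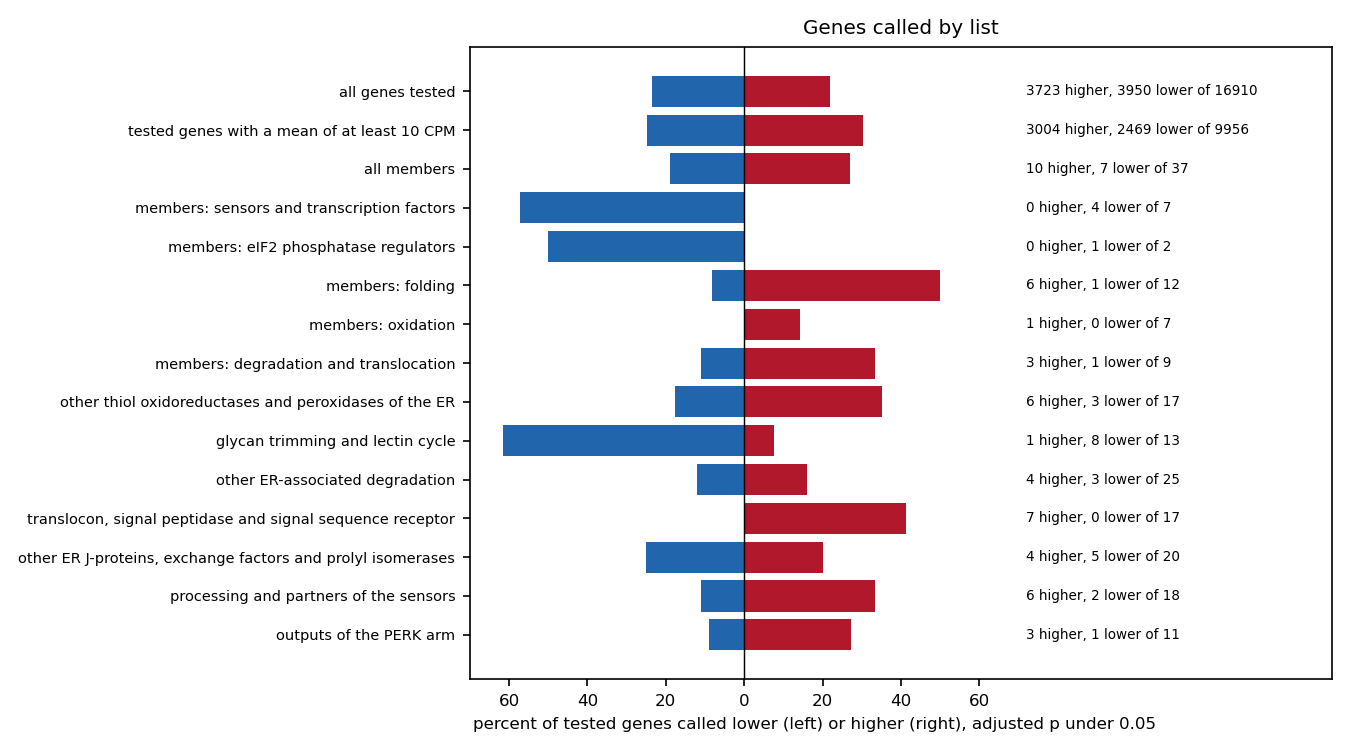
Percent of tested genes called lower (bars to the left) and higher (bars to the right) among all tested genes, the 37 genes (members) in all and by role and the 7 wider lists, with the counts at the right. The sensors and the glycan trimming list extend to the left (4 of 7 and 8 of 13 lower), the folding genes and the translocon list to the right (6 of 12 and 7 of 17 higher).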

How the data were processed

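For 6 libraries the authors deposited unnormalized counts by symbol in 1 table. Per the submitters' processing notes, the tools were featureCounts 2.0.6 (Subread), SAMtools 1.21, HISAT2 2.2.1 and FastQC 0.12.1, with build GRCh38. Not given in the sources used here are the annotation, the strand setting and how multi-mapping reads were counted. Groups and replicate numbers came from the titles. All 21631 symbols entered 1 fit, and 16910 passed the default expression filter. Genes were tested with edgeR 4.0.16 in R 4.3.3 (TMM factors, quasi-likelihood test, two-sided), adjusted over all genes tested; SEs and 95% intervals come from that fit. CPM use TMM-scaled library sizes. Exon lengths were taken from GENCODE (GRCh38), positions and promoter windows from RefSeq (GRCh38.p14). The 38 genes and the wider lists were chosen with earlier results of these data known. Every one of the 38 is named; library values are given for SEPHS2, XBP1, HSPA5, ERN1, EIF2AK3, ATF6, both PPP1R15 and both ERO1 genes, for up to 4 genes per role by smallest adjusted p, and, outside that rule and chosen after its values were seen, for HSP90B1, whose ratio to HSPA5 is reported, and from each wider list up to 3 called genes by smallest adjusted p, plus ATF4, DDIT3, SELENOS and SELENOK. The 10 CPM background was added after the data were seen. SEC11A, SEC11C, SSR3 and SSR4 are named outside that rule, for calls that changed. The planned description of protein sequences was not made.

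Without the strand setting, reads of overlapping genes cannot be told apart: exons of PDIA6, DNAJB11, PDIA3, EIF2AK3 and PDIA5 are shared with other genes over 25.2%, 23.2%, 18.9%, 15.1% and 14.3% of their length, PDIA3 has processed copies, and EDEM2 had counts identical to a readthrough symbol. Those values are uncertain.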

Additional observations from a re-analysis of the deposited data

How the results depend on the processing

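RLE and upper-quartile factors, DESeq2 1.42.0, no filter, a filter of 1 CPM in 3 libraries, voom in limma 3.58.1, the replicate block, an adjusted p under 0.01, removal of a smooth length and GC trend (mgcv 1.9.3), and leaving out each library gave 15 alternatives. Of the 17 called genes, 11 kept their call in all 15 (ATF6, CALR, CANX, DERL2, DNAJB11, DNAJC3, ERN1, ERO1B, PPP1R15B, SEL1L and VCP), and none changed sign. At an adjusted p under 0.01, 6 genes rose and 6 fell, with 3 folding genes higher. With DESeq2 2 folding genes and 1 oxidation gene were lower, with the trend removed 3 and 1, and with the 1 CPM filter 1 oxidation gene. DNAJC10 reversed with the trend removed (0.13), and SEPHS2 missed the threshold there (0.092, edgeR adjusted p = 0.0726). Leaving out 1 library gave 7 to 10 genes higher and 6 to 9 lower, and 1 to 2 folding genes lower. In the wider lists, trend removal left 3 thiol oxidoreductases higher, 5 degradation genes lower, 2 J-protein and isomerase genes higher and 1 sensor partner lower. An adjusted p under 0.01 left 2 of the J-protein list higher and 3 lower and 1 PERK output higher, as did DESeq2 for the last. Without 1 library these were 3 to 5 (J-protein list, higher or lower), 2 to 4 (degradation, higher or lower) and 1 to 4 (PERK outputs, higher). Over all genes, 3069 to 3548 rose and 3270 to 3905 fell with 1 library left out.

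Same-numbered libraries did not deviate together (correlations 0.01, -0.09 and -0.25), and differently numbered ones ranged from -0.25 to 0.30. Such values from 3 libraries per group cannot settle whether the numbers pair them. With the replicate block 10 of the 37 genes rose and 7 fell, as without it, and ATF4 was called higher (edgeR adjusted p = 0.0362). Pair ratios kept their direction under every alternative run. SDF2L1 had the fewest reads of the 37 genes, 202 to 308 per library, and the widest interval.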
